A study of Mus musculus with 6 samples.

Results

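The mammalian circadian clock was described here by 10 genes, Per1, Per2, Per3, Ciart, Dbp, Tef, Usp2, Arntl, Nr1d1 and Cry1, in livers of newborn mouse pups from mothers on different diets. They are 10 of the 19938 genes that had a probe annotated to 1 symbol alone. Each gene is shown by its brightest probe, by the mean of the 6 arrays. The genes were chosen by their roles in the clock and with the differences between the diets on these same arrays known, and the probes were selected on the mean signal, so their levels and differences are a description and carry no test. The other clock genes and the lists beside them were tested. These lists too were chosen with earlier results of the data known, so their p-values and called shares carry that limit.

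Liver RNA of C57Bl6/J mice was hybridised to 6 Affymetrix arrays, 2 for each maternal diet and each from a pool of 3 livers. All mothers ate isocaloric food with 6 g% of oil and were kept under 12 h of light and 12 h of dark, and the livers were taken by day 1 of life. The control diet held soybean oil, the SFA (saturated fatty acid) diet coconut oil and the ALA (alpha-linolenic acid) diet flaxseed oil. The labels give 31.6% alpha-linolenic acid for the ALA diet, 48.51% saturated fatty acids for the SFA diet and 42% oleic acid for a diet abbreviated RD. They give 4 to 5 weeks as the age of the mice used. Sires ate chow except while mating, when they ate the food of the females. Litter, sex and the clock time at which the livers were taken are not in the labels. Clock gene levels depend on that time, so diet and time of collection cannot be told apart in the differences below. The labels also do not say that duplicate pools came from different animals. The errors and p-values therefore cover the spread among these arrays alone, possibly a technical one.

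The clock is a feedback loop of transcription. The proteins of Arntl (also called Bmal1) and Clock bind E-boxes and switch on the Per and Cry genes, Ciart, Nr1d1, Dbp, Tef and Usp2, and the PER, CRY and CIART proteins then repress them. NR1D1 (REV-ERB alpha) represses Arntl and Cry1 through RRE elements, which ROR receptors activate. DBP and TEF, together with HLF, activate genes through D-boxes, which NFIL3 represses. In adult mouse liver Nr1d1 peaks during the day, Dbp, Tef and then the Per genes peak from afternoon to dusk, Cry1 later in the night, and Arntl around dawn, so Arntl and Dbp run in near antiphase. In the perinatal rat liver these rhythms are known to develop gradually.

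RefSeq promoter windows of 300 bases (250 before and 50 after a transcript start, mouse build GRCm38.p6) were given for 9 of the 10 genes, as 12 windows. They are shown because the 3 kinds of element mark the 3 arms of the loop. The E-box CACGTG was present in a window of 4 genes (Per1, Ciart, Tef and Cry1), against 7.15% of all 32851 windows. The variant E-box CACGTT was present in 2 genes (Nr1d1 and Cry1), against 4.68% of windows. The D-box, searched as TTATGTAA or TTACGTAA, was present in 1 gene (Per3), against 1.06%. The RRE, searched as ANTAGGTCA or ANTAGGTTA, was present in 1 gene (Arntl), against 1.04%. The counts are of genes, some with 2 windows, while the shares are of windows, so they are not like for like. The windows of Arntl overlap and share an RRE. Both strands were searched, the letters were chosen with the sequences in view, and no matches within a window overlapped. A match describes the letters and does not show that a protein binds there. Per2 is named only. The Ciart stretch before the start (chr3:95882229-95882478, minus strand) holds 3 E-boxes, and the Per3 stretch (chr4:151044666-151044915, minus strand) holds 2 D-boxes. Both are written 5′ to 3′ on the strand of the gene, with the motifs in capitals.

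Ciart: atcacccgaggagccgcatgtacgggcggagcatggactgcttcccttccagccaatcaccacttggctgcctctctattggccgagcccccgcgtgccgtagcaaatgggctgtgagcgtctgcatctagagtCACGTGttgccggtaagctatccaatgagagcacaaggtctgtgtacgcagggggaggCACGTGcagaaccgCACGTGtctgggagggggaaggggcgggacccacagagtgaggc
Per3: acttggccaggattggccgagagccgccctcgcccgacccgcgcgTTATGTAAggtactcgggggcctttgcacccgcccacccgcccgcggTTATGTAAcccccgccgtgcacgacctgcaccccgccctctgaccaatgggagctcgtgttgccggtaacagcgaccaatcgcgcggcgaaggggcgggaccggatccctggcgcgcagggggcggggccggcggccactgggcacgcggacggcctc

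Short sites with the motif in capitals are given for the other genes that hold one. The Arntl elements lie on the plus strand in chr7:113207492-113207521 and chr7:113207528-113207557, and the E-box sites lie in chr10:85185097-85185126 (Cry1, minus strand), chr11:69098771-69098800 (Per1, plus strand), and chr15:81802534-81802563 and chr15:81811264-81811293 (Tef, plus strand, a site before each of 2 starts). The variant E-boxes, which read as the reverse complement here, lie on the minus strand in chr10:85185116-85185145 (Cry1) and chr11:98775388-98775417 (Nr1d1).

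Arntl, RRE nearer the upstream end: attggtcggaaAGTAGGTTAgtggtgcgac
Arntl, RRE further downstream: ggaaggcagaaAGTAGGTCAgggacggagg
Cry1, E-box: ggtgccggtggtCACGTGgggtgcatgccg
Cry1, variant E-box: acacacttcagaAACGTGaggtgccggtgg
Nr1d1, variant E-box: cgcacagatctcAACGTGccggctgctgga
Per1: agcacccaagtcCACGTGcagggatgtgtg
Tef, start 1: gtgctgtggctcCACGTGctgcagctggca
Tef, start 2: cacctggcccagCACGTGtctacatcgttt

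**Figure D1:**
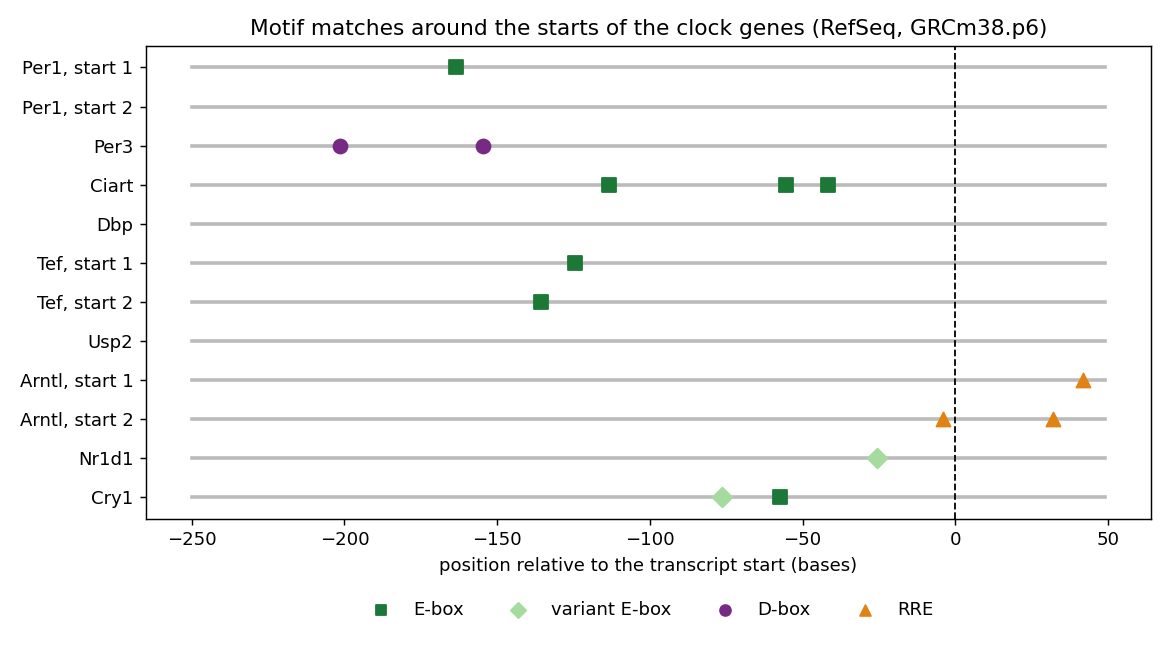
Positions of the motif matches in the 12 RefSeq windows of 9 clock genes. The horizontal axis is the distance in bases from the transcript start (dashed line), each grey line is a window, and marker shapes stand for the 4 motifs. Ciart holds 3 E-boxes, Per3 2 D-boxes and Arntl 2 RREs at its start 2.

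The arrays differed in ways that the diet labels do not state. The Y-linked genes Eif2s3y, Uty and Kdm5d had signal on both ALA arrays and on control replicate 2 and were at most 4.42 on control replicate 1 and both SFA arrays. Xist, which is transcribed from the inactive X chromosome of female cells, had 10.67 and 8.34 on control, 3.76 and 4.24 on ALA, and 9.46 and 9.51 on SFA, so control replicate 2 carried both signals. The 7 measured fetal liver genes summed to a linear signal of 221 to 229 on the control arrays, 662 to 1148 on ALA and 1456 to 1540 on SFA. Dlk1 of that list went the other way on SFA, by -0.70, and was at -0.002 on ALA, and neither was called. In the order control, ALA and SFA the 7 cell cycle genes summed to 206 to 207, 566 to 1568 and 1665 to 1743. The 5 genes of older liver, among them the hepcidin gene Hamp, summed to 8809 to 12017, 3600 to 4538 and 3269 to 3645. Hamp had means of 11.70, 5.12 and 4.34, whereas Cyp2c70 of the same list went the other way, by 0.97 on ALA and 0.87 on SFA (limma adjusted p = 0.00728 and 0.00765). Whether the control pools were of the stated age was not tested, and that doubt goes with every difference from control below. The 6 macrophage genes summed to 1158 to 1319 on control, 2877 to 3795 on ALA and 2565 to 2826 on SFA. The 6 endothelial genes summed to 623 to 923, 1976 to 2216 and 1509 to 1538, the 6 stromal genes to 1173 to 1753, 3025 to 3057 and 2908 to 2952, and the 5 erythroid genes to 186 to 457, 549 to 686 and 740 to 802. The 4 hepatocyte genes, which define the labelled tissue, summed to 21400 to 22483, 21662 to 22019 and 19740 to 20373. The part of these differences in the clock values was not tested, and in whole liver fewer cells of a type and less RNA per cell cannot be told apart. Duplicate arrays correlated over the 10977 tested genes with r from 0.977 to 0.986, and arrays across diets with r of 0.927 to 0.964, where genes are not independent replicates.

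Values are log2 signals, so a difference of 1 is a 2-fold change, and signals near the 4.42 above may be background, where differences are compressed. All 10 genes passed the minimum mean signal of 5 over the 6 arrays. Both control arrays of Arntl and of Cry1 and SFA replicate 2 of Ciart lay under that value. For all 10 genes the ALA arrays lay wholly above or wholly below the control arrays, 8 above and 2 below. Over all tested genes 55.0% were separate in this way, 27.0% with ALA above and 28.0% with ALA below. SFA was separate from control for 7 genes, 2 above and 5 below (all genes 64.2%, 28.6% and 35.7%). ALA was separate from SFA for 9 genes, 8 above and 1 below (all genes 55.8%, 31.4% and 24.4%). Since the genes were picked with these differences known, nothing is read from the counts. The ALA and SFA comparisons share the control arrays, so they are given side by side.

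**Figure D2:**
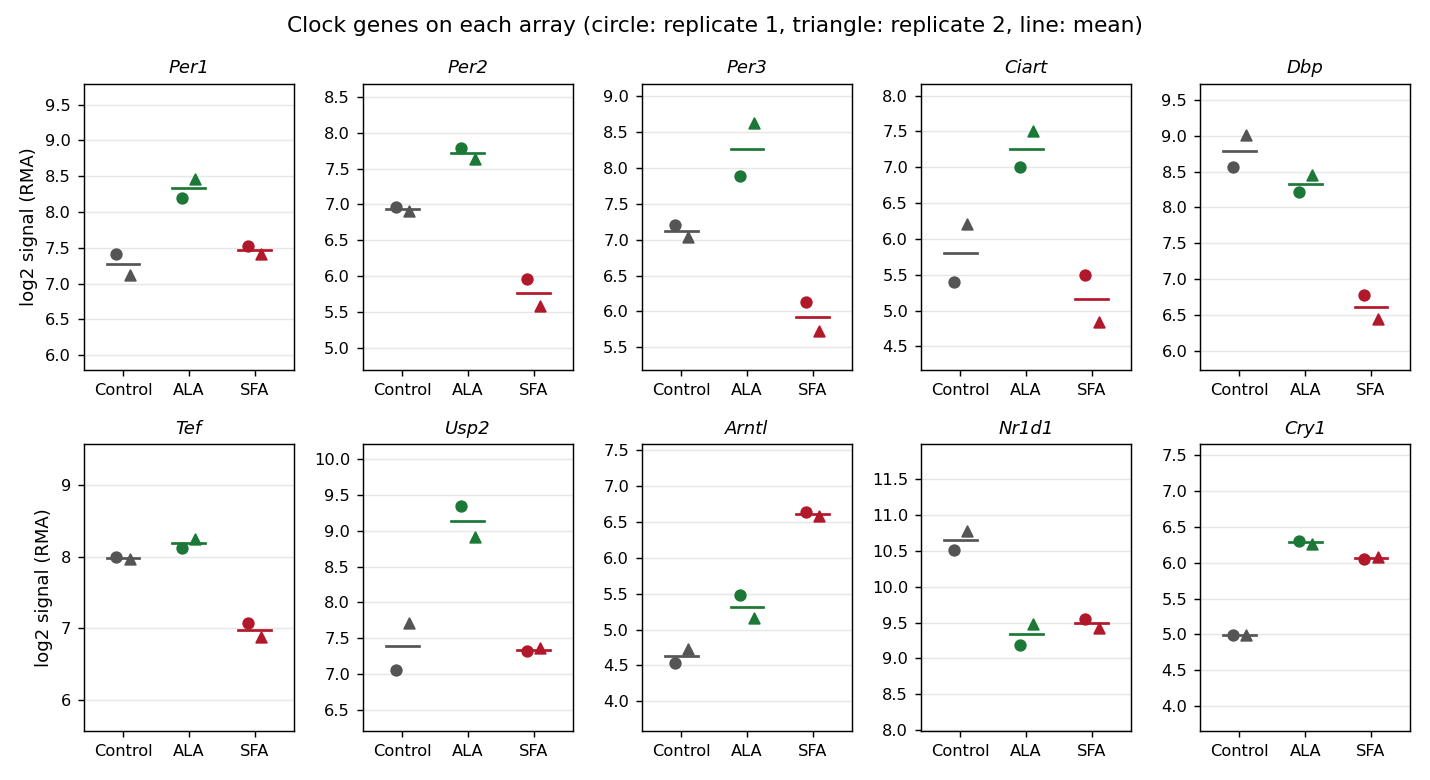
Log2 signal (vertical axis, RMA) of the 10 clock genes on each of the 6 arrays, by maternal diet; every panel spans the same number of log2 units. Circles are replicate 1, triangles replicate 2 and lines the mean of 2 arrays. Per2, Per3, Dbp and Tef are lowest on SFA, Arntl is highest there, and Nr1d1 is highest on control.

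The Per genes, whose proteins repress their own transcription, were highest on ALA. Per1 had a signal of 7.42 and 7.12 on the control arrays, 8.20 and 8.46 on ALA, and 7.52 and 7.41 on SFA. Its ALA arrays stood above the other 4, while control and SFA overlapped. Per1 was 2.09-fold higher on ALA than on control (log2 difference 1.06, SE 0.16, n = 2 arrays per group) and at 0.20 (SE 0.16) on SFA. Per2 had 6.96 and 6.92 on control, 7.79 and 7.63 on ALA, and 5.96 and 5.58 on SFA. The 3 diets did not overlap, in the order SFA, control, ALA. Per2 was 1.71-fold higher on ALA than on control (0.77, SE 0.16), 2.25-fold lower on SFA than on control (-1.17, SE 0.16), and 3.84-fold higher on ALA than on SFA (1.94, SE 0.16). Per3 had 7.21 and 7.03 on control, 7.88 and 8.64 on ALA, and 6.13 and 5.72 on SFA. It kept the order of Per2, and its ALA and SFA levels were 5.04-fold apart (2.33, SE 0.26). Its log2 difference was 1.14 (SE 0.26) between ALA and control and -1.19 (SE 0.26) between SFA and control. On SFA, Per1 overlapped control, whereas Per2 and Per3 lay below it.

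Ciart and Usp2 also stood highest on ALA. Ciart encodes a repressor of the ARNTL and CLOCK pair, and its promoter stretch above holds 3 E-boxes. It had 5.40 and 6.20 on control, 7.01 and 7.50 on ALA, and 5.49 and 4.83 on SFA. ALA lay above both other diets, which overlapped. The log2 difference was 1.45 (SE 0.33) between ALA and control, -0.64 (SE 0.33) between SFA and control and 2.09 (SE 0.33) between ALA and SFA. The value for SFA depended on the control array, with -0.24 without control replicate 2 and -1.04 without control replicate 1. A second, dimmer probe of Ciart read 4.44 and 5.10 on control, 7.65 and 8.06 on ALA, and 4.20 and 5.30 on SFA. With it the difference between ALA and control was 3.09 (SE 0.38) and that between SFA and control -0.02 (SE 0.38). ALA exceeded SFA by 3.11 (SE 0.38) with this probe. Ciart lies on chromosome 3. Of the 10 annotated probes nearest in number to the brighter probe, 10 belong to genes of chromosome 10 and 0 to genes of chromosome 3, while for the dimmer probe all 10 belong to genes of chromosome 3. For the probes of the other 9 genes all 10 neighbours lie on the gene's own chromosome. It is therefore uncertain that the brighter probe, whose values are used in the counts and plots, reads Ciart itself, and the values of both probes are to be read side by side.

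Usp2 encodes a deubiquitinating protease with a strongly rhythmic transcript. It had 7.06 and 7.71 on control, 9.35 and 8.92 on ALA, and 7.32 and 7.36 on SFA. The ALA arrays lay far above the others, and the SFA arrays lay between the control arrays. Usp2 was 3.35-fold higher on ALA than on control (1.75, SE 0.24) and 3.46-fold higher on ALA than on SFA (1.79, SE 0.24), and its SFA difference was -0.04 (SE 0.24). That value was -0.37 without control replicate 1 and 0.28 without control replicate 2.

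Dbp and Tef, which encode related D-box activators, were low on SFA. Dbp had 8.57 and 9.01 on control, 8.21 and 8.46 on ALA, and 6.78 and 6.44 on SFA. The order was SFA, ALA, control, with no overlap but little room between ALA and control. Dbp was 4.53-fold lower on SFA than on control (-2.18, SE 0.20) and 3.30-fold lower on SFA than on ALA (1.72, SE 0.20). Between ALA and control its difference was -0.46 (SE 0.20), with -0.24 without control replicate 2 and -0.68 without control replicate 1. Tef had 8.00 and 7.97 on control, 8.12 and 8.25 on ALA, and 7.07 and 6.88 on SFA. Tef was 2.01-fold lower on SFA than on control (-1.01, SE 0.13) and at 0.20 (SE 0.13) on ALA. Dbp and Tef were thus both lower on SFA than on control. On ALA their differences from control had opposite signs but were small beside their errors (-0.46, SE 0.20, and 0.20, SE 0.13), so no divergence is read from them.

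Arntl, the activator of the loop, ran the other way on SFA. It had 4.53 and 4.72 on control, 5.48 and 5.16 on ALA, and 6.64 and 6.59 on SFA. The order was control, ALA, SFA without overlap. Arntl was 3.97-fold higher on SFA than on control (1.99, SE 0.15) and 1.62-fold higher on ALA than on control (0.70, SE 0.15), and its ALA minus SFA difference was -1.29 (SE 0.15). Its control signal is close to the background level above, so these folds may be understated.

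Nr1d1 and Cry1 separated control from both other diets. Nr1d1 encodes the receptor that represses Arntl and Cry1. It had 10.51 and 10.78 on control, 9.19 and 9.48 on ALA, and 9.55 and 9.43 on SFA. It was 2.49-fold lower on ALA (-1.31, SE 0.16) and 2.23-fold lower on SFA (-1.16, SE 0.16) than on control, and ALA and SFA overlapped (-0.15, SE 0.16). Cry1, a repressor gene that holds an E-box and a variant E-box in its window, had 5.00 and 5.00 on control, 6.31 and 6.27 on ALA, and 6.05 and 6.08 on SFA. It was 2.45-fold higher on ALA (1.29, SE 0.12) and 2.10-fold higher on SFA (1.07, SE 0.12) than on control. ALA and SFA did not overlap but differed by 0.22 (SE 0.12), which came to between 0.07 and 0.11 after other scalings between arrays. The 75th percentile scaling moved the median of all genes in that comparison from 0.04 to -0.07, and relative to the median Cry1 was at 0.18 with and without it. On control, then, Nr1d1 was high where Arntl and Cry1 were low, and the reverse held on both other diets.

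**Figure D3:**
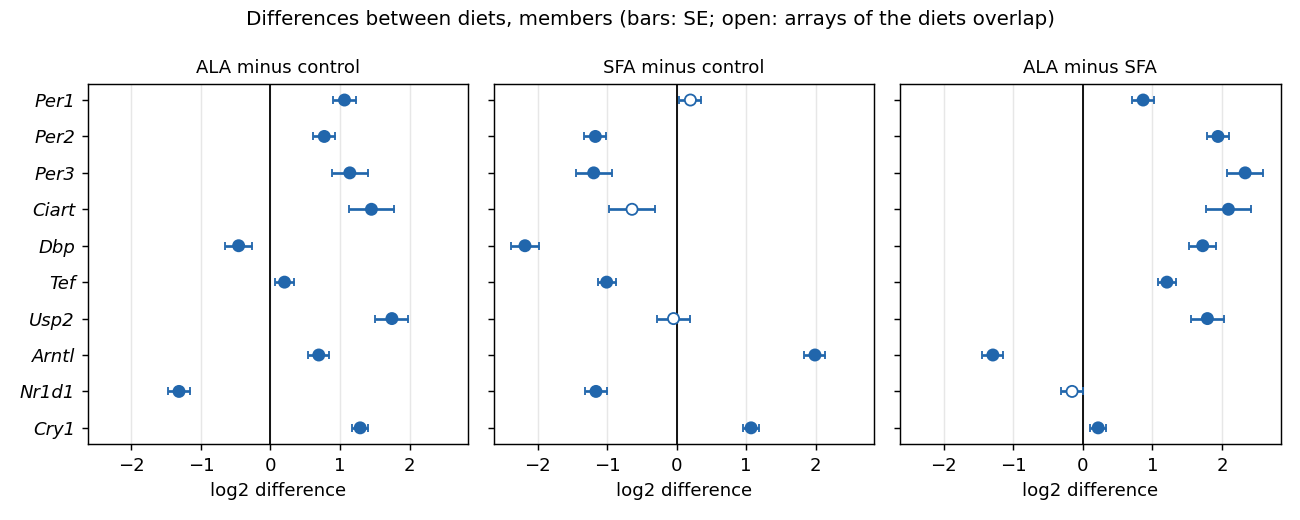
Log2 differences between diets (horizontal axes) for the 10 clock genes, with bars of 1 SE from the fit over 10977 genes. Open circles mark pairs of diets whose arrays overlap. Dbp lies at -2.18 and Arntl at 1.99 in SFA minus control, and Per3 at 2.33 in ALA minus SFA.

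By diet, 6 of the 10 genes (Per2, Per3, Dbp, Tef, Arntl and Cry1) had 3 separate levels, as did 23.9% of all tested genes. The median size of the log2 difference, without its sign, was 1.10 for ALA against control, 1.11 for SFA against control and 1.51 for ALA against SFA. Over all tested genes it was 0.20, 0.24 and 0.20. Because the 10 genes were picked with their differences known, nothing is read from either comparison with all genes. Since the sex signal of the pools differs between the diets, the values were also taken among arrays alike in the presence of Y-linked signal. The SFA arrays and control replicate 1 were all without it. Between them Dbp differed by -1.96, Per2 by -1.19, Per3 by -1.28, Tef by -1.02, Nr1d1 by -1.02, Arntl by 2.08 and Cry1 by 1.07. Per1 differed by 0.05, Ciart by -0.24 and Usp2 by 0.28 between the same arrays. The ALA arrays and control replicate 2 all had Y-linked signal but differed in Xist, so they are not alike in sex. Between them Per1 differed by 1.21, Per2 by 0.80, Per3 by 1.23, Ciart by 1.05, Usp2 by 1.42, Arntl by 0.60, Cry1 by 1.29, Tef by 0.22, Dbp by -0.68 and Nr1d1 by -1.45. ALA and SFA cannot be told apart from that signal in their own comparison.

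Among the other core clock genes, Noct and Cry2 rose on ALA, and Nr1d2 and Bhlhe40 fell on SFA. Of 19 such genes 16 had a probe and 12 passed the minimum signal. On ALA 2 of the 12 rose and 0 fell, where 5.11% of all tested genes rose and 2.82% fell, 7.93% in all (limma, Benjamini-Hochberg over 10977 genes). Noct, which encodes the rhythmic phosphatase nocturnin, had 7.30 and 6.74 on control, 8.23 and 8.05 on ALA, and 7.01 and 6.95 on SFA. It rose by 1.13 on ALA (SE 0.19, limma adjusted p = 0.0203) and lay 1.16 above SFA (SE 0.19, limma adjusted p = 0.0431). As for Usp2, its ALA arrays lay above the other 4, and its control and SFA arrays overlapped. Cry2, the paralog of Cry1, rose by 0.74 on ALA (SE 0.17, limma adjusted p = 0.0438), with 0.16 (SE 0.17) on SFA.

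On SFA 0 of the 12 rose and 2 fell, where 6.62% of all tested genes rose and 7.15% fell, 13.8% in all. After other scalings the split over all genes was 1004 higher and 515 lower (75th percentile), 967 and 528 (quantile) and 957 and 586 (cyclic loess), against 727 and 785. Nr1d2, the paralog of Nr1d1, fell by 0.63 (SE 0.12, limma adjusted p = 0.0207), and Bhlhe40, an E-box repressor gene, fell by 0.82 (SE 0.19, limma adjusted p = 0.0337). On ALA they were at -0.16 and -0.58 and did not pass. Between ALA and SFA 1 of the 12, Noct, was higher and 0 were lower, where 1.09% of all tested genes were higher and 0.437% lower, 1.53% in all.

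The other 8 genes passed in none of the 3 comparisons in the default setting. Csnk1e passed on SFA with a signal minimum of 6, after each of the 3 other scalings, with trend and robust moderation and without control replicate 1, and on ALA in the last 2 of these settings. Clock, the partner of Arntl, was at -0.12 (SE 0.13) on ALA and 0.17 (SE 0.13) on SFA. The receptor gene Rora, which opposes Nr1d1 at RREs, was at -0.16 and 0.03. Hlf, the third D-box activator gene, was at 0.26 and -0.24, and the D-box repressor gene Nfil3 at -0.56 and -0.57. The kinase genes Csnk1d (0.28 and 0.32) and Csnk1e (0.66 and 0.68, limma adjusted p = 0.0792 and 0.0566), whose products phosphorylate PER, were above 0 on both diets. The ubiquitin ligase genes Fbxl21 and Btrc were at -0.38 and -0.08 on ALA and at 0.12 and -0.35 on SFA. The median size of difference over the 12 genes was 0.33, 0.28 and 0.28 in the 3 comparisons. The Noct and Cry2 calls on ALA ended without control replicate 2, ALA replicate 1 or ALA replicate 2, and that of Cry2 without any of the other 3 arrays (limma adjusted p up to 0.0845 and 0.175). The Nr1d2 and Bhlhe40 calls ended without either control or either SFA array (up to 0.102 and 0.148), and the Noct call between ALA and SFA without any 1 of the 6 (up to 0.206).

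**Figure D4:**
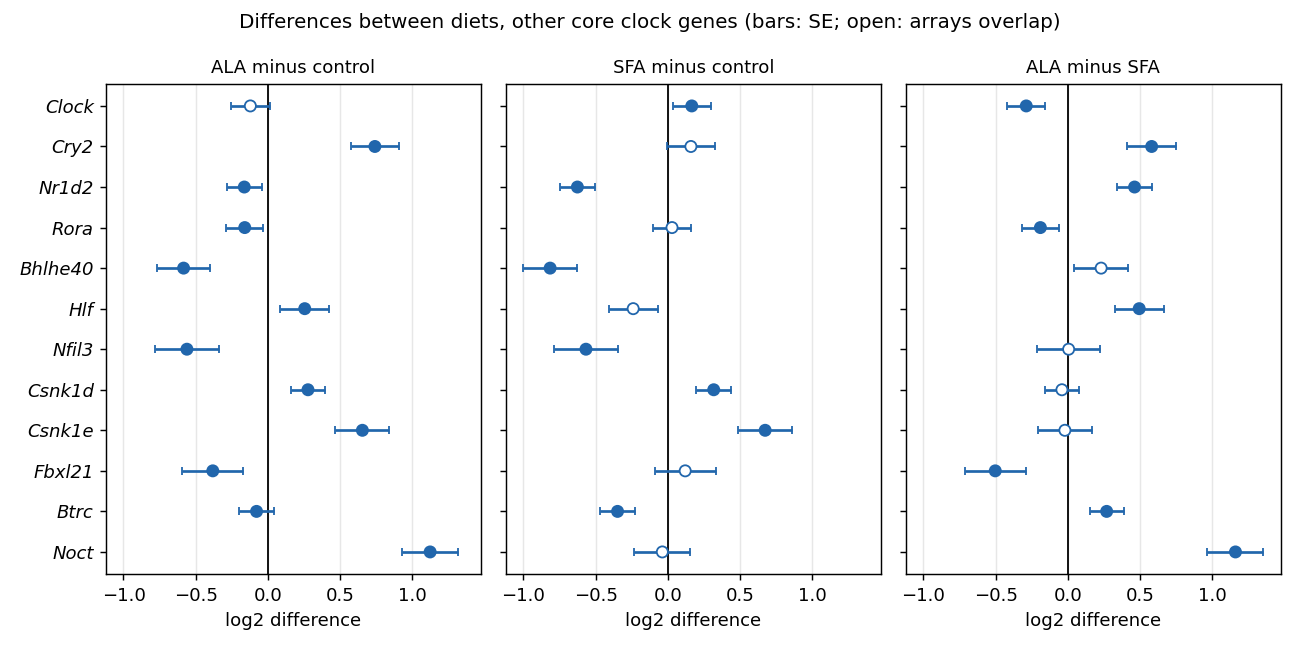
Log2 differences between diets (horizontal axes) for the 12 other core clock genes that were tested, with bars of 1 SE. Open circles mark pairs of diets whose arrays overlap. Noct lies at 1.13 in ALA minus control, and Bhlhe40 and Nr1d2 lie lowest in SFA minus control.

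Liver genes known to be driven by the clock were divided. All 21 that had a probe, of 25 listed, passed the minimum signal. On ALA 4 rose and 1 fell, on SFA 3 rose and 2 fell, and 3 (Lpin1, Alas1 and Upp2) were higher on ALA than on SFA, where 7.93%, 13.8% and 1.53% of all tested genes were called (medians 0.35, 0.04 and 0.02, against -0.01, -0.05 and 0.04 over all genes). Lpin1, a phosphatidate phosphatase gene, rose by 1.67 on ALA (SE 0.13, limma adjusted p = 0.00246) and by 0.78 on SFA (SE 0.13, limma adjusted p = 0.0123). Insig2 encodes an anchor of the sterol-sensing machinery and is repressed by NR1D1 in mouse liver. It rose by 0.67 on ALA and by 1.37 on SFA (SE 0.13, limma adjusted p = 0.0304 and 0.00317). The order of its means was that of Arntl, but its ALA minus SFA difference (-0.70, limma adjusted p = 0.0582) was not called. Alas1, the gene of the rate-limiting enzyme of heme synthesis, had 10.78 and 10.59 on control, 11.25 and 11.17 on ALA, and 10.21 and 10.05 on SFA. It fell by 0.55 on SFA (SE 0.13, limma adjusted p = 0.0396). The order of its means, SFA, control, ALA, was that of Per2 and Per3, but its ALA minus control difference (0.53, limma adjusted p = 0.0575) was not called. Over all tested genes 23.9% had 3 separate levels, so nothing is read from a shared order. The transferrin receptor gene Tfrc, also an erythroid gene, rose by 2.17 on ALA and 2.51 on SFA. The erythroid sums above were higher on the same diets, but of 3 erythroid genes tested only 1 was called on each diet. A link between Tfrc and the erythroid signal was not tested. The calls of Lpin1 and Tfrc on ALA and of Insig2 and Tfrc on SFA held without any 1 array. That of Lpin1 on SFA ended without control replicate 2 or either SFA array (limma adjusted p up to 0.0752), and those of Insig2 on ALA and Alas1 on SFA without any 1 array (up to 0.138 and 0.174). Gys2, the other gene that fell on SFA, was lost without either control or either SFA array (up to 0.147). Of the other calls on ALA, Tars, which fell, was lost without any 1 array and Pnpla2 without any 1 except ALA replicate 1 (up to 0.143 and 0.124). The 3 calls between ALA and SFA were lost without any 1 array (up to 0.21) and with the replicate number as a block.

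Per1 is also a target of the glucocorticoid receptor, and genes of that kind were read beside it. Whether the receptor has a part in the Per1 values was not tested. Of 13 glucocorticoid-induced genes 12 were tested. On ALA 6 rose, 0 fell and 6 were not called, and on SFA 4 rose, 0 fell and 8 were not called (medians 1.00 and 0.59). Per1 itself overlapped control on SFA (0.20, SE 0.16). Of the 12 genes 2 (Zbtb16 and Fkbp5) were higher on ALA than on SFA. Over all tested genes 5.11% rose on ALA, 6.62% rose on SFA and 1.09% were higher on ALA than on SFA. Fkbp5, which encodes a co-chaperone of the receptor, had 7.02 and 6.74 on control, 8.74 and 8.61 on ALA, and 7.88 and 7.72 on SFA, and rose by 1.80 on ALA (SE 0.15, limma adjusted p = 0.00282) and by 0.92 on SFA (SE 0.15, limma adjusted p = 0.0121). Zbtb16, a transcription factor gene, rose by 2.04 on ALA (SE 0.21, limma adjusted p = 0.00474) and was at 0.75 on SFA, which did not pass. The metallothionein genes Mt1 and Mt2 rose by 2.47 and 2.77 on ALA and by 2.36 and 2.67 on SFA. The Mt2 calls ended without either array of the raised diet (limma adjusted p up to 0.0618), and that of Fkbp5 on SFA without control replicate 2 or either SFA array (up to 0.0776). The Tat call on ALA was lost without any 1 array and that of Lcn2 without any 1 except control replicate 2. The Lcn2 call also ended with no signal minimum, after 75th percentile centring, with trend and robust moderation and with the replicate block. With trend and robust moderation the Mt2 calls and the Pdk4 call on SFA ended too. Pdk4 on SFA was lost without any 1 array except control replicate 1 (up to 0.14). Both calls between ALA and SFA were lost without any 1 array (up to 0.21), with no signal minimum, after each of the 3 other scalings and with the replicate block.

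Genes of cyclic AMP and immediate early signalling, which acts on Per1 and Per2, were read in the same way. The medians of the 10 tested genes were -0.24 on both diets. Of these 1 rose on each diet, a share near the 5.11% and 6.62% of all tested genes, and this was Ppargc1a, which encodes a coactivator of ROR receptors, by 1.63 on ALA and by 1.04 on SFA (SE 0.21, limma adjusted p = 0.00834 and 0.0251). The ALA call ended without control replicate 2 (limma adjusted p = 0.0527) and the SFA call without either control or either SFA array (up to 0.122). Of 10 temperature-responsive genes (medians -0.21 on ALA and 0.04 on SFA), read because body temperature drives part of the rhythmic liver transcripts, 1 rose on ALA, the cold-induced Rbm3 (0.52, SE 0.12, limma adjusted p = 0.0476), a call that ended without any 1 array (up to 0.18). The Rbm3 call also ended with no signal minimum, after 75th percentile centring, with the mean of all probes and with the replicate block. In the temperature list 1 gene fell on each diet, where 2.82% of all tested genes fell on ALA and 7.15% on SFA. It was the small heat shock gene Hspb1, with log2 differences of -2.75 on ALA and -3.10 on SFA.

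For Dbp, Nr1d1 and Arntl the 4 most similar genes were named by Pearson r over the 6 arrays, which fall into 3 pairs, among 1648 tested genes with a range of at least 1. With Dbp they were Snord104, Ogt, Nktr and Phf21a (r from 0.989 to 0.994). Ogt, which encodes the enzyme that adds N-acetylglucosamine to proteins, had means of 9.25 on control, 9.09 on ALA and 8.17 on SFA. With Nr1d1 they were Acbd5, Ugt2b35, Aox1 and Ces1f (r from 0.986 to 0.999). Acbd5, a peroxisomal acyl-CoA-binding protein gene, had means of 9.06, 7.89 and 7.99 in the same order. With Arntl they were Pgam1, Denn2b, Ppif and Gabra3 (r from 0.980 to 0.988). Pgam1, a glycolytic mutase gene, had means of 9.20, 9.59 and 10.24.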

How the data were processed

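The deposited values are log2 signals of 6 Affymetrix arrays that the authors made by robust multi-array averaging (RMA) in a workflow that also names Partek 6.6, as the submitters' processing notes give it; the log2 scale is read from their range, and the settings, genome build and annotation version are not given in the sources used here. Groups and replicate numbers come from the sample titles. Symbols come from the platform annotation: of 35556 probes, 21789 have 1 symbol, 1621 several and 12146 none listed. The brightest probe per symbol left 19938 genes, of which the 10977 with a mean of at least 5 were tested. The genes described and the lists beside them were chosen with earlier results of these data known. All 10 members and all tested core clock genes could be named. So could called genes of the other lists (at most the 6 largest changes per comparison) and the nearest 4 genes by correlation. A few genes of the sex-linked, fetal and older-liver lists could be named too.

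In R 4.3.3, limma 3.58.1 fitted a mean per diet to all 6 arrays (lmFit, eBayes, 3 residual degrees of freedom, two-sided). P-values were adjusted by Benjamini-Hochberg over all tested genes and called below 0.05. The fit was tested on simulated data. Errors are SE from this fit with n = 2 arrays per group, and that number limits the precision. Alternatives changed the signal minimum, the scaling, the probe rule, the variance moderation, the arrays used and a replicate block. Promoter windows are RefSeq's on GRCm38.p6. Figures were drawn with matplotlib 3.10.9.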

Additional observations from a re-analysis of the deposited data

How the results depend on the processing

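The 10 clock genes kept the sign of their differences under all alternatives in which they were measured, except Usp2 in SFA minus control (main -0.04, and 3 of 14 alternatives above 0). Several alternatives could not move these differences: the signal minima, the variance moderation, the replicate block and leaving out an array of the third diet. The mean of all probes could move Ciart alone. The kept signs therefore rest on the other scalings and on leaving out arrays of the diets compared. With the dimmer probe, an alternative chosen after the data were seen, Ciart was at 3.09 on ALA and -0.02 on SFA against control, and ALA exceeded SFA by 3.11.

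The number of genes called between ALA and SFA, 168 by default, was the least stable. It was 32 with no signal minimum, 293 with a minimum of 6, 100 after 75th percentile centring (42 higher and 58 lower, against 120 and 48), 68 after quantile normalization (34 and 34), 76 after cyclic loess (42 and 34) and 421 with trend and robust moderation. Of the 12 other core clock genes, 1 was called on ALA in place of 2 with no signal minimum and after 75th percentile centring. Between ALA and SFA 0 in place of 1 was called by limma with no signal minimum, after 75th percentile centring, quantile normalization and cyclic loess (5 to 6 genes at an unadjusted p below 0.05; with no minimum 16 genes were tested in place of 12). On SFA 3 in place of 2 were called with a minimum of 6, after each of these scalings and with trend and robust moderation, in each case with Csnk1e among them. Leaving out 1 array at a time gave 267 to 475 called genes on ALA, 245 to 1428 on SFA and 0 to 36 between ALA and SFA (limma, 1634 to 2383 unadjusted in the last). Among the 12 clock genes it gave 0 to 2 on ALA, 0 to 2 on SFA and 0 between ALA and SFA (2 to 5 unadjusted). Where 1 array is left in a diet, it is assumed to vary like the others. Other causes of these changes were not tested.

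The replicate numbers are shared between the diets, but deviations of same-numbered arrays correlated with r of -0.03, -0.004 and 0.02, so the numbers were not taken to pair the pools. With the replicate number as a block, 719 genes were called on ALA, 1232 on SFA and 0 between ALA and SFA by limma (2393 unadjusted). Of the 12 clock genes 2 passed on ALA, 3 in place of 2 on SFA, and 0 between ALA and SFA (4 unadjusted).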
